A study of Mus musculus with 18 samples.

Results

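The genes described here are 8 chemokine receptor genes of mouse chromosome 9: Ccr1, Ccr1l1, Ccr2, Ccr3, Ccr9, Xcr1, Cxcr6 and Cx3cr1. They were chosen by name, with earlier results of these data known, from the 55413 genes of the GENCODE vM21 annotation of mm10 (21938 of them protein-coding). For each gene, every H3K27me3 and H3K27ac peak was taken that touched the gene body, the 5 kb before it or the 1 kb after it, a stretch called the window below. The 7 genes other than Cx3cr1 stand in 1 run of 435.1 kb, at chr9:123678439-124113557, and Cx3cr1 lies apart from the run on the same chromosome.

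Chemokine receptors are G protein-coupled receptors through which white blood cells follow gradients of small secreted proteins, the chemokines. CCR2, the receptor of CCL2, draws monocytes out of the bone marrow and into injured tissue, CX3CR1 binds the membrane-bound chemokine CX3CL1 and marks patrolling monocytes and resident macrophages, and CCR1 binds CCL3, CCL5 and CCL9. H3K27me3, the trimethylation of lysine 27 of histone H3, is laid down by Polycomb complexes over silent genes. H3K27ac, the acetylation of the same lysine, marks active promoters and enhancers, and a single histone tail cannot carry both.

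The cells were bone marrow-derived macrophages (BMDM), grown from marrow in medium with macrophage colony-stimulating factor from L929 cells and left untreated. The WT mice are labelled C57BL6, the mdx mice Dmdmdx-4Cv (a point mutation in the dystrophin gene, Dmd), and the mdxTLR4-/- mice, which carry the mdx mutation and lack Toll-like receptor 4, are labelled mTLR4 (mdxTLR4 in the H3K27ac title) with the strain Bl6/Bl10, while the methods give a C57BL/6J background. All mice were male. The labelled ages run from 6 to 23 weeks in steps of 1 week per library, in the order of the libraries, with the WT, mdx and mdxTLR4-/- ChIP libraries for H3K27me3 at 12 to 13, 14 to 15 and 16 to 17 weeks, their inputs at 6 to 11 weeks, and the ChIP libraries for H3K27ac at 19 to 20, 21 to 22 and 23 weeks. With such regular steps the labelled ages may not be those of the mice, and if they are, age and genotype cannot be told apart. There were 2 ChIP libraries for each mark and genotype, except 1 for H3K27ac in mdxTLR4-/-, and the single H3K27ac input has no genotype in its labels.

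The authors merged the replicates before they called peaks, so each of the 6 peak lists (2 marks in 3 genotypes) stands alone, no spread between mice is known, and no difference between genotypes could be tested. The value of a peak is the number of ChIP reads in it, and the intervals given are 95% exact Poisson intervals, which cover counting error only. H3K27me3 lists held 28143 to 41780 peaks with 7358418 to 10199918 reads in peaks, and H3K27ac lists held 12076 to 15665 peaks with 168487 to 274020 reads. The shallow H3K27ac lists had a median of 8 to 10 reads per peak and a minimum of 5, so a weak peak that is listed in 1 genotype and absent in another may differ by a few reads. Tlr4, the gene missing in mdxTLR4-/- mice, touched H3K27ac in each genotype (52, 29 and 43 reads in WT, mdx and mdxTLR4-/-) and H3K27me3 in none, and since the extent of its deleted part is not given in the sources used here, these peaks do not check the labels. A gene without a peak was not called, which is not a count of 0. All 10 macrophage marker genes examined (Csf1r, Adgre1, Itgam and others) touched H3K27ac in each genotype and none touched H3K27me3, whereas 0 of 5 neutrophil markers touched H3K27ac in any genotype. Of 5 T cell markers 1 touched H3K27ac in WT and 0 in mdx and mdxTLR4-/-, and of 4 B cell markers 2, 1 and 1 did. Because the libraries come from whole cultures, fewer cells with a mark and less of the mark per cell cannot be told apart.

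H3K27ac touched 5 or 6 of the 8 genes, depending on the genotype, and H3K27me3 touched 2. The windows of 6 genes touched an H3K27ac peak in WT, of 5 in mdx and of 5 in mdxTLR4-/-, where 22.7%, 19.3% and 20.2% of all genes did (39.9%, 34.5% and 36.5% of protein-coding genes). Longer windows are touched more often, and those of Ccr9 and Cx3cr1 are 111.9 and 174.3 kb long. Among protein-coding genes with windows of 100 to 200 kb, 53%, 48.8% and 49.6% touched H3K27ac. With windows of 10 to 20 kb, 30.2%, 26% and 27.4% did. Without peaks over the start of another protein-coding gene the counts were 5, 4 and 4, and Xcr1 was the gene lost. The genes touched in WT were Ccr9, Xcr1, Ccr1, Ccr1l1, Ccr3 and Cx3cr1, in mdx Ccr9, Xcr1, Ccr1, Ccr2 and Cx3cr1, and in mdxTLR4-/- Ccr9, Xcr1, Ccr1, Ccr1l1 and Cx3cr1. With RefSeq gene bounds 6, 4 and 4 genes were touched, since Cx3cr1 was then not touched in mdx or mdxTLR4-/-. In the 5 kb upstream of the start, the part of the gene that the study used for this mark, at least 200 bp were under a peak in 3 genes in WT (Ccr1, Ccr1l1 and Ccr3), 1 in mdx (Ccr1) and 1 in mdxTLR4-/- (Ccr1l1), beside 15.2%, 12.5% and 12.7% of all genes. With the gene bounds of RefSeq in place of GENCODE this count was 1, 1 and 0, since the RefSeq starts of Ccr1l1 and Ccr3 lie farther upstream than their H3K27ac peaks. No gene of the 8 was under H3K27me3 over at least 50% of its window in any genotype, where 14.4%, 14.2% and 12.5% of all genes were.

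**Figure D1:**
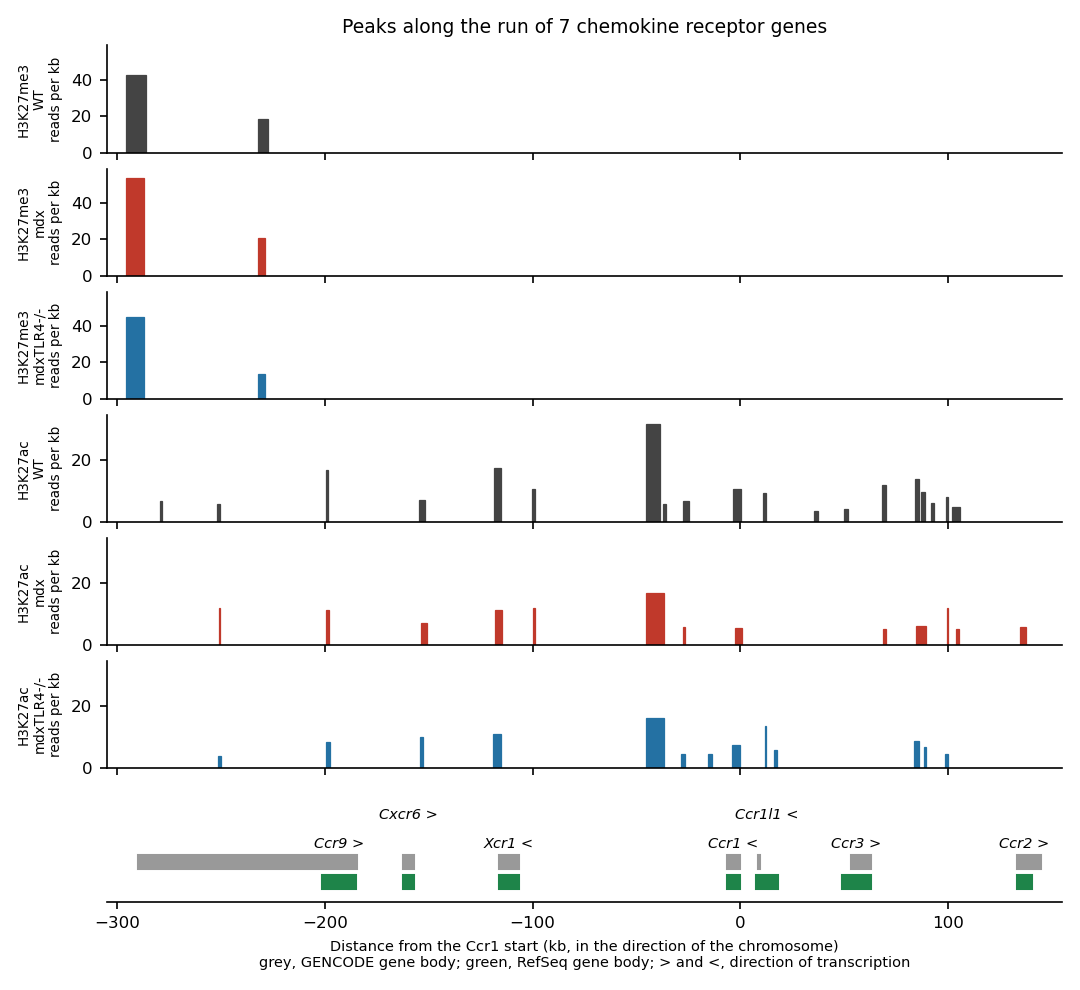
Peaks along the run of 7 chemokine receptor genes in BMDM, by distance from the Ccr1 start (x axis, kb) and read density (y axis, reads per kb, unscaled), with 1 track for each mark and genotype and gene bodies at the bottom. H3K27me3 is seen only at the left end, under the long GENCODE body of Ccr9, while 13 to 19 H3K27ac peaks are spread over the run and the tallest lies between Xcr1 and Ccr1.

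The run of 7 genes was dense in H3K27ac peaks for chromosome 9. Its peaks numbered 19 (WT), 13 (mdx) and 13 (mdxTLR4-/-), or 43.7, 29.9 and 29.9 peaks per Mb, while the whole chromosome held 5.84, 4.74 and 5.11 peaks per Mb. These peaks covered 10.3%, 7.91% and 7.26% of the run and 1.25%, 0.958% and 0.875% of the chromosome. H3K27me3 showed the opposite order, with 2 peaks in each genotype that covered 2.15%, 1.46% and 1.46% of the run, against 15%, 15.5% and 13.3% of the chromosome. Merged across genotypes, the H3K27ac peaks made 20 regions, of which 9 were present in all 3 genotypes, 4 in 2 and 7 in 1. Only 8 of the 20 touched the window of one of the receptor genes, and the other 12 lay outside these windows.

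Ccr1 (ENSMUSG00000025804.5, chr9:123962124-123968692, minus strand) was the one gene of the 8 with an H3K27ac peak over the start of the GENCODE gene. In WT the peak at chr9:123965001-123969200 held 44 reads (32 to 59.1), more than 94.4% of the peaks in that list. The mdx peak at chr9:123966201-123969600 held 18 reads (10.7 to 28.4), and the mdxTLR4-/- peak at chr9:123964601-123968600 held 29 (19.4 to 41.6) and ended 92 bp short of the start, inside the gene. Per kb of peak these are 10.5 (WT), 5.29 (mdx) and 7.25 reads (mdxTLR4-/-), so WT was highest and mdx lowest. The mdx over WT density ratio was 0.505 (exact Clopper-Pearson interval 0.275 to 0.893) and became 0.723 once each list was scaled to 1000000 reads in peaks, and the mdxTLR4-/- over WT ratio was 0.692 (0.418 to 1.13) and 1.13 after scaling. Ccr1 had no H3K27me3 peak, and the nearest lay 227.3 to 229.1 kb from its start.

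The Ccr1 promoter is shown because the WT and mdx peaks covered it. It runs from 250 bases before to 50 after the start that the RefSeq promoter table gives, which for Ccr1 is the gene start (chr9:123968643-123968942, minus strand, GRCm38, the NCBI name of mm10), and capitals mark a match to the C/EBP motif TTNNGNAA.
Ccr1 promoter: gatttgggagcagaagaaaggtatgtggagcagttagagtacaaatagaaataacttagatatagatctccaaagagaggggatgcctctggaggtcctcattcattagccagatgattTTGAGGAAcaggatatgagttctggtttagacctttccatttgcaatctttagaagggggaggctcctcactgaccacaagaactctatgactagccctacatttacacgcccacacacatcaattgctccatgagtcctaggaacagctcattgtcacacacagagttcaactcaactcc

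Ccr2 (ENSMUSG00000049103.14, chr9:124101950-124113557, plus strand), the receptor on which monocyte recruitment depends, was the only one of the 8 with an H3K27ac peak in mdx alone. That peak, at chr9:124103401-124106400, held 17 reads (9.9 to 27.2) over 3000 bp, or 5.67 reads per kb, more reads than 75.4% and a higher density than 39.8% of the mdx peaks. It began 1451 bp past the GENCODE start and lay in the gene body, over the start of 1 of its 4 transcripts (124105626), so it did not count in the upstream window. No peak of either mark was called in the Ccr2 window in WT or mdxTLR4-/-. Among all genes, 2.04% had a touched H3K27ac window in mdx alone and 2.96% in mdx and not in WT, while 3.81% had one in WT alone. The nearest H3K27me3 peak was 360.6 kb from the Ccr2 start in WT and 325.7 and 326.3 kb from it in mdx and mdxTLR4-/-.

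The Ccr2 promoter of the same table (chr9:124101933-124102232, plus strand, GRCm38), set on a transcript start at 124102183, 265 bp past the RefSeq gene start, and the central 300 bases of the mdx peak (chr9:124104751-124105050, plus strand, GRCm38) are shown because this is the gene whose H3K27ac call differed in favour of mdx. Capitals mark matches to the C/EBP motif on either strand.
Ccr2 promoter: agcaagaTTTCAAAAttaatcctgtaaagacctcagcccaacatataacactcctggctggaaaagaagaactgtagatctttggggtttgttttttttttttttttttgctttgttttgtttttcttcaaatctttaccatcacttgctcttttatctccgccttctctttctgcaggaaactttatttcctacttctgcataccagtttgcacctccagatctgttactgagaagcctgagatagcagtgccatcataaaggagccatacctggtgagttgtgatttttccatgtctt
Ccr2 mdx peak centre: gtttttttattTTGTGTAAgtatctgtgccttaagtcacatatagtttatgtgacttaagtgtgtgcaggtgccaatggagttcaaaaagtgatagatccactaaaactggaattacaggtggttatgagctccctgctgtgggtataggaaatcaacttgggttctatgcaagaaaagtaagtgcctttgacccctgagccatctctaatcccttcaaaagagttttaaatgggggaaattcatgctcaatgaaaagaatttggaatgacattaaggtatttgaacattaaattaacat

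Ccr1l1 (ENSMUSG00000064039.4, chr9:123977243-123978408, minus strand), a close relative of Ccr1 that arose in rodents, and Ccr3 (ENSMUSG00000035448.9, chr9:124021972-124031689, plus strand), the eotaxin receptor of eosinophils, had H3K27ac upstream of their GENCODE starts. For Ccr1l1 the WT peak at chr9:123979801-123981200 held 13 reads (6.92 to 22.2), the mdxTLR4-/- peak at chr9:123980401-123981000 held 8 (3.45 to 15.8), and no peak was called in mdx. Of all genes, 2.58% had this pattern of a touched window in WT and mdxTLR4-/- and not in mdx. A further peak in mdxTLR4-/- alone, at chr9:123984801-123986400, held 9 reads (4.12 to 17.1). It lay 1393 bp beyond the Ccr1l1 window on the upstream side, but inside the longer RefSeq body (chr9:123976430-123986715). For Ccr3 a single peak was called in WT, at chr9:124018801-124020800, with 8 reads (3.45 to 15.8) over 2000 bp. Both genes are thus in the class touched in WT and not in mdx, which holds 6.39% of all genes. The WT peak of Ccr1l1 had more reads than 59.2% and that of Ccr3 more than 25.2% of the WT peaks. Near-identical stretches of Ccr1 and Ccr1l1 could share reads.

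Ccr9 (ENSMUSG00000029530.16, plus strand), a homing receptor of gut and thymus that binds CCL25, kept 1 H3K27ac peak near its RefSeq start in every genotype. The peak lay at chr9:123769001-123770200 in WT with 20 reads (12.2 to 30.9), at chr9:123769201-123770800 in mdx with 18 (10.7 to 28.4), and at chr9:123769401-123771200 in mdxTLR4-/- with 15 (8.4 to 24.7). It began 1790, 1990 and 2190 bp past the RefSeq start (123767211), so the intervals of the reads overlapped and the position differed by a few windows of the peak caller. The central 300 bases of the stretch common to the genotypes lay in an exon of another annotated gene, AC165425.1 (123768114-123769989). They also lay in the exon of 1 Ccr9 transcript that retains an intron (123767169-123771979). Which gene the peak belongs to was not tested. A second peak over the start of the neighbour Lztfl1, which lies inside the long GENCODE body of Ccr9, held 7 reads in each genotype, and another, at chr9:123689001-123690200 in WT alone, held 8.

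Xcr1 (ENSMUSG00000060509.4, chr9:123852315-123862029, minus strand), the receptor of cross-presenting dendritic cells for XCL1, was touched only at its 3′ end. The WT peak there held 59 reads (44.9 to 76.1), the mdx peak 38 (26.9 to 52.2) and the mdxTLR4-/- peak 39 (27.7 to 53.3), and it covered the start of Fyco1, a neighbour that begins just past the Xcr1 end, 8229 to 8629 bp from the Xcr1 start. The WT peak was in the top of its list (97.3% of peaks had fewer reads). An upstream peak 6.4 to 6.8 kb from the Xcr1 start, outside the window, held 15 reads in WT and 12 in mdx and was not called in mdxTLR4-/-. Cxcr6 (ENSMUSG00000048521.8, chr9:123806475-123811760, plus strand), a receptor of memory T and natural killer T cells for CXCL16, had no peak of either mark in its window. The nearest H3K27ac peak began 1041 bp (WT), 2241 bp (mdx) and 1841 bp (mdxTLR4-/-) beyond the window on the 3′ side, with 22, 20 and 14 reads.

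Cx3cr1 (ENSMUSG00000052336.7, chr9:119901616-120069879, minus strand) had weak H3K27ac peaks that mostly lay at its neighbours. Its window held 4 peaks in WT (6 to 12 reads each), 2 in mdx (6 and 8 reads) and 4 in mdxTLR4-/- (5 to 9 reads). All but 1 of them, over the start of Gorasp1, in Ttc21a or near Csrnp1, were at least 84.1 kb from the RefSeq start of Cx3cr1. Within the RefSeq body (chr9:120048683-120068296) the remaining peak was called, in WT at chr9:120054401-120055400 with 6 reads (2.2 to 13.1), and 1.58% of the WT peaks had fewer reads. Neither the start nor the 5 kb upstream of Cx3cr1 was under a peak of either mark in any genotype.

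**Figure D2:**
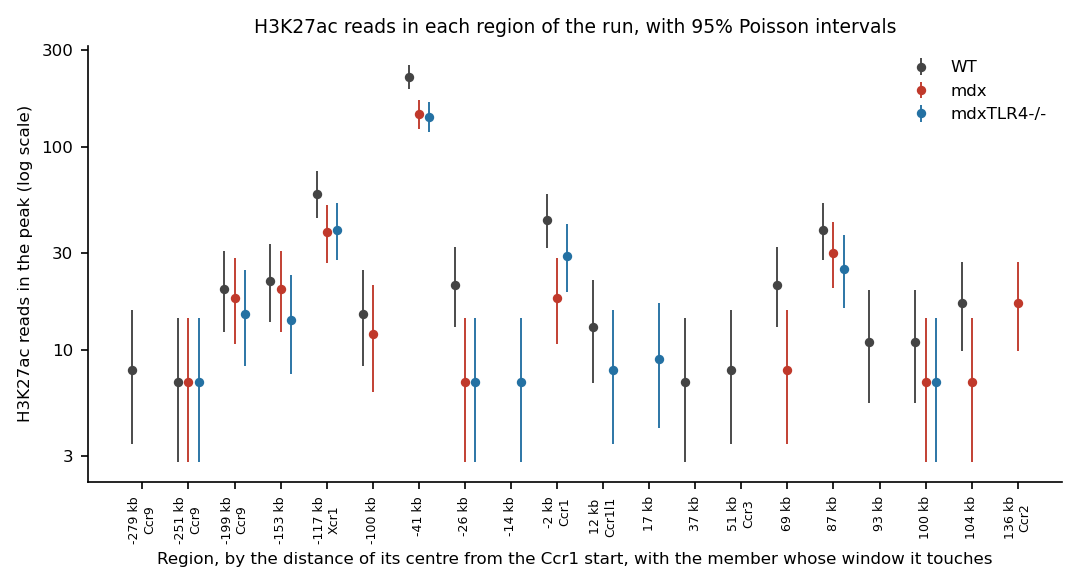
H3K27ac reads in the peaks of each of the 20 regions of the run (y axis, log scale), by the distance of the region's centre from the Ccr1 start (x axis, kb), with 95% Poisson intervals and 1 colour per genotype. No point is drawn where no peak was called. The region between Xcr1 and Ccr1, which holds 222, 145 and 141 reads, stands above the others in each genotype, and the Ccr2 region has a point in mdx alone.

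The strongest H3K27ac signal of the run was in no gene and in no window. A block between Xcr1 and Ccr1, at chr9:123923201-123933000, lies 29.1 kb past the 3′ end of Ccr1, 35.7 kb from its start and 61.2 kb upstream of the Xcr1 start, and 0 genes of the annotation overlap it. It was singled out after its values were seen. In WT it was a peak of 213 reads (185 to 244) with a small peak of 9 beside it, while in mdx and mdxTLR4-/- it was 1 peak, of 145 (122 to 171) and 141 reads (119 to 166). By reads the large peak ranked 20 among 15665 peaks in WT, 25 among 12076 in mdx and 19 among 12493 in mdxTLR4-/-, and it ranked 3 on chromosome 9 in each. The block held 40.7%, 43.4% and 45.8% of the H3K27ac reads in the peaks of the run. Its mdx over WT density ratio was 0.623 (0.502 to 0.772) and its mdxTLR4-/- over WT ratio 0.606 (0.487 to 0.752). After scaling to 1000000 reads in peaks these became 0.892 and 0.986. In the 6800 bp common to the 3 genotypes, 27.6% of the bases are marked as repeats in the reference, where the median over the 6509 regions with H3K27ac in all 3 genotypes was 16.7% (quartiles 11.2% and 24.3%). Over chromosomes 1 to 19, X and Y the share was 36.4%.

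The central 300 bases of this common stretch (chr9:123926451-123926750, plus strand, GRCm38) are shown as the middle of the strongest region, and no searched motif other than CpG was found in them.
Intergenic block centre: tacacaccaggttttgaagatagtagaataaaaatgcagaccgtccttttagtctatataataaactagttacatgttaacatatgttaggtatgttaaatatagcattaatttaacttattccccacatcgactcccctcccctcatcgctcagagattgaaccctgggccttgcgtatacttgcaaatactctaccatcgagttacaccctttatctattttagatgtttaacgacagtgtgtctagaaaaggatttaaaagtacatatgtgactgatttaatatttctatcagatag

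The promoters of the 8 genes held fewer CpG than the median promoter, but only those of Ccr1, Ccr2 and Ccr3 fell below the first quartile. Promoters of the RefSeq table matched all 8 genes by symbol. For 6 of them the table's start is the RefSeq gene start, for Ccr2 it lies 265 bp and for Ccr3 4146 bp downstream of it. Their 300 bases held 1 CpG in Ccr1, Ccr2 and Ccr3, 3 in Cxcr6 and Ccr1l1, 4 in Ccr9, 5 in Cx3cr1 and 6 in Xcr1, all below the median of 7 over 32841 promoters (quartiles 3 and 20). The motifs searched, on both strands, were TATAAA, GAGGAAGT (PU.1), TGANTCA (AP-1), TTNNGNAA (C/EBP) and, for IRF, GAAA and GAAA with any 2 bases between them. A TATAAA match on the opposite strand was found in Xcr1 and Ccr1l1, a C/EBP match in Ccr1, Ccr2 and Ccr3, and an AP-1 match in Ccr1l1 and Ccr3, with no overlap between matches, while Ccr9, Cxcr6 and Cx3cr1 held none of the 5 motifs. TATAAA was found in 13.6% of all promoters, the PU.1 motif in 3.2%, AP-1 in 7.81%, C/EBP in 40.7% and IRF in 3.44%, so 3 of 8 with C/EBP is near the share of all promoters. In the centres of 6505 H3K27ac regions present in all 3 genotypes the shares were 11.3%, 4.1%, 8.78%, 42.8% and 4.84%.

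H3K27me3 touched the windows of 2 of the 8 genes, Ccr9 and Cx3cr1, in each genotype, where 27.9% of all genes were touched in WT, 30.7% in mdx and 28.3% in mdxTLR4-/- (38.4%, 41.3% and 39% of protein-coding genes). The share of 2 in 8 is thus near that of all genes. These are the genes with long GENCODE bodies, of 105.9 and 168.3 kb, and among genes with windows of 100 to 200 kb, 49.6%, 54.8% and 51.8% were touched. In both, 1 transcript makes the body long. The other 5 transcripts of Ccr9 start at 123767169 or later, and the RefSeq bodies are 16.2 and 19.6 kb. With RefSeq bounds 0 of the 8 genes touched an H3K27me3 peak in any genotype. Ccr1, Ccr1l1, Ccr2, Ccr3, Xcr1 and Cxcr6 had none under either annotation.

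The H3K27me3 domain assigned to Ccr9 covered its far upstream GENCODE start (123678439) and ended 84.6 to 85.8 kb before the RefSeq start. It also covered the start of its neighbour Slc6a20a, a transporter gene. From 123672801 onward in each genotype, the WT domain held 416 reads (377 to 458), the mdx domain 469 (428 to 513) and the mdxTLR4-/- domain 386 (348 to 426), or 42.4, 53.3 and 44.9 reads per kb. A weaker peak in the long intron held 95, 66 and 47 reads, or 18.3, 20.6 and 13.8 reads per kb. Together the peaks of Ccr9 covered 12.8%, 10.2% and 10.2% of its window.

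**Figure D3:**
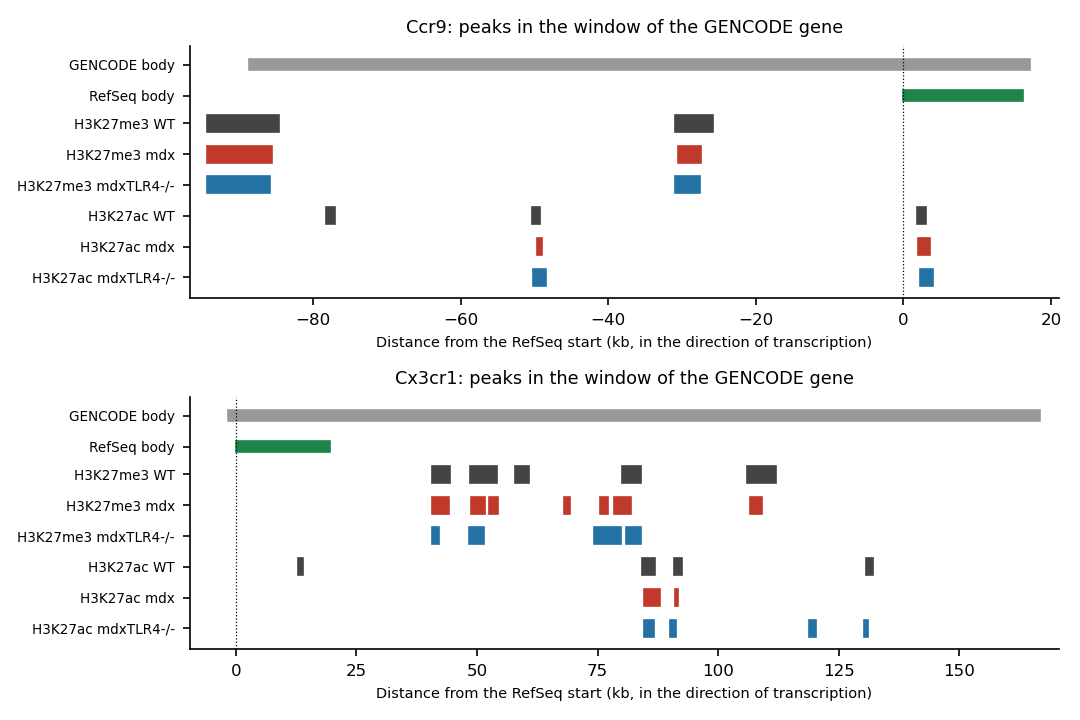
Peaks in the windows of Ccr9 and Cx3cr1, by distance from the RefSeq start in the direction of transcription (x axis, kb), with 1 row for each mark and genotype below the GENCODE (grey) and RefSeq (green) gene bodies. Every H3K27me3 peak lies outside the RefSeq bodies, and the H3K27ac peak just past 0 in Ccr9 is present in the 3 genotypes.

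The H3K27me3 peaks assigned to Cx3cr1 numbered 5 (WT), 7 (mdx) and 4 (mdxTLR4-/-), with 558, 477 and 338 reads and a coverage of 12.6%, 9.76% and 7.57% of the window. They lay 40.7 kb or more downstream of the RefSeq start and touched 0 exons of Cx3cr1. Their place was over and around Xirp1, a gene of striated muscle, whose own window was covered to 59.3%, 51.8% and 29%, and around Csrnp1 and Ttc21a. The 2 marks did not overlap in the windows of Ccr9 and Cx3cr1 in any genotype, and the smallest gap between them was 200 bp, in Cx3cr1 in WT.

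Pooled over Ccr9 and Cx3cr1, the H3K27me3 density was 28.9 (WT), 34.9 (mdx) and 30.6 reads per kb (mdxTLR4-/-). The mdx over WT ratio was 1.21 (1.11 to 1.32), close to the median of 1.22 over 17103 regions with H3K27me3 in all 3 genotypes, and it was 0.987 after scaling to reads in peaks. The mdxTLR4-/- over mdx ratio was 0.877 (0.797 to 0.964), beside a median of 0.79, and turned to 1.22 after scaling. For H3K27ac, the 4 genes with a peak in both WT and mdx gave a density ratio of 0.781 (0.601 to 1.01), beside a median of 0.857 over 6509 regions, and 1.12 after scaling. The 5 genes with a peak in both WT and mdxTLR4-/- gave 0.772 (0.611 to 0.974), beside 0.84, and 1.26 after scaling. In the 9 H3K27ac regions of the run present in all 3 genotypes, the density was lower in mdx than in WT in 6, with an interval below 1 in 4, and lower in mdxTLR4-/- than in WT in 8, with an interval below 1 in 2. After scaling 5 and 3 of the 9 were lower. Over all 6509 regions the unscaled ratio was above 1 in only 37% for mdx over WT and 34.5% for mdxTLR4-/- over WT. A lower density was thus the more common case in the lists as a whole. The library depths are not known here, so the direction of these ratios could not be fixed.

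The other chemokine receptors carried H3K27me3 more broadly. Of 15 such genes, 6 in WT, 6 in mdx and 5 in mdxTLR4-/- had at least 50% of the window under H3K27me3, and 3, 4 and 4 touched H3K27ac. The most covered in WT were Ccr7, which guides dendritic cells and T cells to lymph nodes (87.7% in WT, 72.3% in mdx and 61.6% in mdxTLR4-/-), the scavenging receptor Ackr3 (87.1%, 95.7% and 76.4%) and Ccr4, which binds CCL17 and CCL22 on T cells (81.6%, 64.1% and 68.9%). H3K27ac was called in all 3 genotypes at Ccrl2 (26, 21 and 13 reads), Cxcr4 (16, 23 and 23) and Cxcr5 (27, 15 and 17), and for Cxcr4 it reached the 5 kb upstream in mdx and mdxTLR4-/- and not in WT. Ccr10 touched an H3K27ac peak in mdx and in neither other genotype, with 16 reads, so a call in mdx alone was not particular to Ccr2. The median H3K27me3 coverage of these 15 genes was 27.1%, 13.1% and 11.8%, and that of the 8 genes and of all genes was 0% in each genotype.

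**Figure D4:**
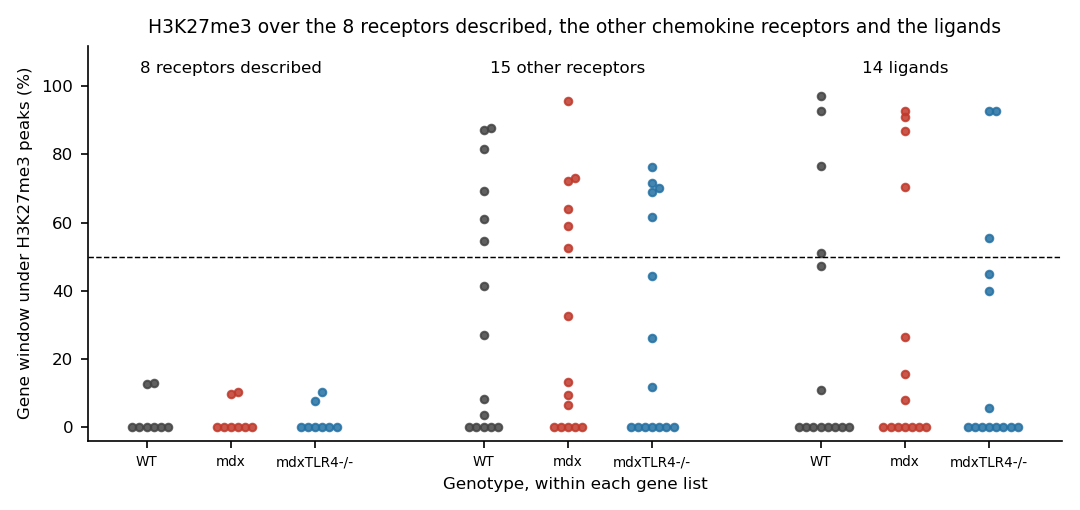
Share of each gene window under H3K27me3 peaks (y axis, %) for the 8 receptors described, 15 other chemokine receptors and 14 ligands, with 1 point per gene, by genotype (x axis). The dashed line is the 50% used here to call a gene covered, which is not the study's own comparison of ChIP with input. None of the 8 receptors passes 12.8%, while 5 or 6 of the other receptors and 3 or 4 of the ligands lie above the line.

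Among the ligands of the 8 receptors some carried H3K27me3, some H3K27ac, some both and some neither. Cx3cl1 touched both marks in WT and mdx, while Ccl5 and Xcl1 touched neither in any genotype. Of 14 genes, 4, 4 and 3 were under H3K27me3 over at least 50% of the window, and 6, 7 and 7 touched H3K27ac. Of all genes, 14.4%, 14.2% and 12.5% were so covered, and 22.7%, 19.3% and 20.2% touched H3K27ac. H3K27me3 was broadest at Ccl24 (97.1%, 92.7% and 92.7%) and Ccl11 (92.8%, 91% and 92.8%), which encode eotaxins that bind CCR3, and at Cx3cl1 (76.7%, 70.6% and 45%). The 50% call changed from WT to mdx at Ccl2, the main ligand of CCR2, whose coverage was 51.1% in WT, 15.6% in mdx and 5.45% in mdxTLR4-/-, and in the other direction at Ccl8 (47.3%, 86.9% and 55.4%). H3K27ac was called in every genotype at Ccl12 (49, 52 and 47 reads), another ligand of CCR2, at Ccl3 (13, 21 and 25), Ccl4 (19, 13 and 12) and Ccl9 (27, 14 and 25), and at Cxcl16 (27, 26 and 18), the ligand of CXCR6. The upstream call of H3K27ac changed from WT to mdx at Ccl3, with 45 bp under a peak in WT and 845 bp in mdx, and at Ccl25, with no peak in WT and 609 bp in mdx.

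By the 6 values of H3K27me3 window coverage and upstream H3K27ac coverage (percent, in 3 genotypes), the protein-coding genes most like Ccr1 were Ep300, Nit2 and Zfp110 (Euclidean distance 1.19 to 1.84). Those most like Ccr1l1 were Bex6, Ctss and Dtx4 (0 to 1.08), those most like Ccr9 were Itgae, Slc16a12 and Dcun1d4 (0.872 to 1.02), and those most like Cx3cr1 were Dnah6, Sh3yl1 and Dst (0.86 to 1.17). For Xcr1, 6486 genes shared its 6 values of 0, and none is named. Ccr2, Ccr3 and Cxcr6 had a peak in fewer than 2 of the 6 lists and were not compared.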

How the data were processed

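Native ChIP-seq (chromatin cut with micrococcal nuclease, without crosslinking) of H3K27me3 and H3K27ac was done in BMDM, in 18 libraries with their inputs. According to the submitters' processing notes and the methods, reads were handled with CASAVA 1.8, cutadapt 1.15 and Bowtie2 2.3.4, mapped to mm10, merged over replicates and called with SICER 2.0 (window 200 bp, gap 600 bp, FDR 0.01). The authors deposited, for each peak, a raw count of the reads inside it, neither scaled for depth or length nor corrected for input. For H3K27me3 the methods give default settings of Bowtie2 and SICER, and any other filter on repeated or multiply matched reads is not given in the sources used here. The study called genes Increased from ChIP against input intensity, whereas the coverage limits of 50% and 200 bp used here are on peaks.

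Peak starts were shifted to count from 1. Windows and bounds came from GENCODE vM21, without mitochondrial genes, and sequences from RefSeq and GRCm38. A peak counted for a gene with at least 1 bp in the window. Density is reads per kb of peak, and ratios pool the peaks of the genes with a peak in both genotypes, each peak once. The members and gene lists were chosen with earlier results of these data known. All 8 genes are named. Of the other receptors and ligands, those named are the 3 most covered by H3K27me3 in WT, those whose call differs between WT and mdx, and those touching H3K27ac in all 3 genotypes. Other marker lists were T cell, B cell, neutrophil, and muscle and fibroblast (Myod1, Col1a1 and others). In the muscle and fibroblast list, 3 of 5 genes were under H3K27me3 in each genotype and 1 touched H3K27ac. Of 5 T cell genes 4, 3 and 2, of 4 B cell genes 2, 2 and 2, and of 5 neutrophil genes 1, 2 and 1 were under H3K27me3 over at least 50% of the window in WT, mdx and mdxTLR4-/-. No test between genotypes was possible. The alternatives are those of the closing section. The tools were matplotlib 3.10.9, scipy 1.17.1, numpy 2.4.6 and Python 3.11.15. Coverage, peak contact and intervals were tested on simulated data.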

Additional observations from a re-analysis of the deposited data

How the results depend on the processing

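No paired analysis was possible because the authors merged replicates before peaks were called, so that each genotype has 1 list without replicate numbers, and leaving out a replicate was not possible for the same reason. The count of genes under H3K27me3 was 0 in each genotype with 50% of the window and with 20%, the body alone, long peaks, denser peaks, equal numbers of peaks and RefSeq bounds. It was 2 in each genotype for any peak in the window and 1 for a start under a peak, both through the long GENCODE transcripts, and 0 for any peak within RefSeq bounds. All alternatives with RefSeq bounds, here and below, were chosen after seeing the data.

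The count with H3K27ac upstream was 3, 1 and 1 in WT, mdx and mdxTLR4-/-. A minimum of 1 kb gave 0 in mdx and 0 in mdxTLR4-/-, 2 kb on both sides of the start gave 2 in mdx, peaks of at least 1 kb gave 0 in mdxTLR4-/-, and RefSeq bounds gave 1 in WT and 0 in mdxTLR4-/-. The count touched by H3K27ac stayed within 1.5 times under every alternative run, including the one, added after seeing the data, that left out peaks over the start of another protein-coding gene (5, 4 and 4).

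Scaling to reads in peaks changed the density ratios. For H3K27me3, mdx over WT became 0.987, which turns its direction, mdxTLR4-/- over WT became 1.2, and mdxTLR4-/- over mdx became 1.22, which turns its direction. For H3K27ac, mdx over WT went from 0.781, with an interval that includes 1, to 1.12. From 0.958, with an interval that also includes 1 (0.725 to 1.27), mdxTLR4-/- over mdx went to 1.09. The ratio of mdxTLR4-/- over WT, whose interval lay below 1, went from 0.772 to 1.26, which turns its direction. Relative to the 1st percentile of density, H3K27me3 was 1.04 for mdx over WT, from 1.21, and 1.12 for mdxTLR4-/- over mdx, from 0.877, which turns its direction. On that scale the H3K27ac ratios stayed below 1, at 0.781 for mdx over WT, 0.676 for mdxTLR4-/- over WT and 0.838 for mdxTLR4-/- over mdx. Which scaling is right was not tested, since library depths are not known here.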
